A study of Mus musculus with 4 samples.

Results

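The genes described here were 9 genes of the cyclic AMP (cAMP) response, taken as a listed set from the 32285 genes of the deposited matrix. They were the adenylyl cyclases Adcy3 and Adcy7, the phosphodiesterases Pde4a, Pde4b, Pde4d and Pde3b, the transcription factor Crem and the G-protein regulators Rgs1 and Rgs2. All 9 were found, and they were followed in 4 samples of immune cells from mouse melanomas. The study asked how tumours that resist targeted therapy also escape T cells, and what cyclooxygenase in the cancer cells has to do with it. Single-cell RNA was measured in CD45+ cells sorted from tumours of the YUMM1.7OVA line, which carries Braf V600E and makes ovalbumin.

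Each group was 1 sample, and all of them shared the host and the T cell treatment. The hosts were Rag2-/- mice, aged 6 to 12 weeks per the study's methods, which make no T or B cells of their own but keep NK and myeloid cells. In vitro-activated OT-1 CD8+ T cells, which recognise ovalbumin, were given intravenously on day 7, and tumours were taken on day 10, 72 h later. NTT came from a therapy-naive clone (Y1.7_NTT_3A6) and RTT from a clone resistant to BRAF inhibition (Y1.7_RTT_2B12). RTT_ROSA26 was the resistant line cut with a control guide, and RTT_PTGS12KO the resistant line without Ptgs1 and Ptgs2, which encode cyclooxygenases 1 and 2. The knockout was in the injected cancer cells and not in the sorted cells, so Ptgs1 and Ptgs2 reads here are no check of the labels. RTT and RTT_ROSA26 both keep cyclooxygenase, and the difference between them was used as the yardstick for how far 2 resistant tumours can lie apart.

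Cyclooxygenases feed the synthesis of prostaglandin E2, which acts on immune cells through the receptors EP2 and EP4. Both couple to the stimulatory G protein that activates adenylyl cyclase, and the cAMP made then activates protein kinase A and factors of the CREB family. Phosphodiesterases of the PDE4 family and PDE3B break cAMP down again, several of these genes are themselves induced by cAMP, and the short Crem product ICER represses CREB target genes. RGS proteins shorten signalling by G proteins.

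Levels are UMI counts scaled to 1000000 UMIs (CPM), summed over the cells of a sample and class. With 1 sample per group no test between conditions was possible, so each CPM carries an exact 95% Poisson interval and each log2 ratio of CPM + 1 an exact 95% conditional interval, and both cover counting error only. The 3 log2 ratios between samples are named throughout. The naive ratio sets NTT over RTT, the knockout ratio sets RTT_PTGS12KO over RTT_ROSA26, and the yardstick sets RTT_ROSA26 over RTT. A gene was counted as past 2-fold when its log2 ratio was at least 1 in size and it reached 10 CPM in the higher sample. The samples held 6836 to 10296 cells and 69332486 to 146829369 UMIs, with a median of 7292 UMIs per cell in NTT against 12219 to 13280 in the other samples. No barcode was shared by samples within any of the 3 droplet loads, while 75 barcode sequences occurred in more than 1 sample across loads. The study's own cell type names were used, and each sample's Monocyte_1, Infl_Mono and Monocyte_3 cells were taken as monocytes and its TAM_C1q, TAM_Spp1, TAM_cycling, TAM_H2Ab1 and Ctsk_Macro cells as macrophages. Macrophage markers summed to 12310 to 36945 CPM in those macrophage types, a range that also takes in Neutro at 13586. Macro was kept apart because it held both, 25369 CPM of macrophage markers and 346 of cDC2 markers, while the type named cDC2 had 1949 and 202. Markers of B cells were at most 1.07 CPM in any type. There were 6734 macrophages in RTT and 5993 in RTT_ROSA26, but 5207 in RTT_PTGS12KO and 308 in NTT, and only 144 monocytes came from RTT_ROSA26, which widens every interval that uses them. The classes were made up differently, since TAM_H2Ab1 gave 192 of the NTT macrophages and 63 of those of RTT, where TAM_C1q gave 3412. Infl_Mono gave 86 and Monocyte_1 54 of the RTT_ROSA26 monocytes, against 635 and 3347 in the knockout. A ratio between whole classes can therefore come from the mix of types as well as from less RNA per cell. Values within types are given for several members but not for genes of the wider pathway.

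To show what lies upstream of the genes, the 250 bases before each annotated start were read from RefSeq promoter windows (GRCm38.p6) and searched on both strands for the CREB short site TGACG and the full palindromic site TGACGTCA, which contains the short site on both strands. Windows were given for 6 of the 9 genes, not for Crem, Pde3b or Rgs1, and there were 14 windows in all. A short site was found in 4 of them, 1 each in a window of Adcy7, Pde4a, Pde4b and Rgs2, and 17.8% of all 32851 windows hold one. The full site was in 0 of the 14 and in 1.55% of all windows. The windows printed here are those of Rgs2 (chr1:144004150-144004399, minus strand), the 1 gene with a pair of short sites, of the Pde4b start with a short site (chr4:102421305-102421554, plus strand), and of Pde4d (chr13:108653927-108654176, plus strand), the gene described first. Each is written 5′ to 3′ along the gene, and capitals mark the short site or its reverse complement, CGTCA. The short sites start 185 and 67 bases before the Rgs2 start and 34 bases before the Pde4b start. These letters do not occur in the Pde4d window. That window lies inside the annotated gene, whose start is at 108449948, so the bases before the gene start were not searched.
Rgs2: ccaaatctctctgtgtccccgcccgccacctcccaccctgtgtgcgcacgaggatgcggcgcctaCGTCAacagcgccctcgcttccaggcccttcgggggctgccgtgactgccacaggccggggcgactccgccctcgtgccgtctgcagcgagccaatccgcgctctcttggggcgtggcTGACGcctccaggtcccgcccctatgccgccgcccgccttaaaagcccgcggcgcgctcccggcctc
Pde4b: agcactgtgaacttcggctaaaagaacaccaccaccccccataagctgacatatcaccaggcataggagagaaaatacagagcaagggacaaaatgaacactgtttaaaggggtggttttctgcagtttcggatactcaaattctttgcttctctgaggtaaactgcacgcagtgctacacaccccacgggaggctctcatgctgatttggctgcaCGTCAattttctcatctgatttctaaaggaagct
Pde4d: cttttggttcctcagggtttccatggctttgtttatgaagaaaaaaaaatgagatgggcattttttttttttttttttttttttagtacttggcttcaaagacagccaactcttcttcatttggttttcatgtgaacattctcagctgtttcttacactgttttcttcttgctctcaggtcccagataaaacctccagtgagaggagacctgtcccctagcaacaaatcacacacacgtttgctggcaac
A match describes letters and not binding, and the 3′ tags do not tell which start a transcript used.

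Pde4d set the therapy-naive tumour and the cyclooxygenase knockout apart from both resistant tumours that keep cyclooxygenase. The gene (chr13:108449948-109953461, plus strand, GRCm38) encodes a cAMP-specific phosphodiesterase. Whether reads in introns were counted is not given in the sources used here, and Pde4d has very long introns, so its level may hold unspliced RNA. In macrophages its level was 34.1 CPM in RTT (32.9 to 35.2) and 40.8 in RTT_ROSA26 (39.5 to 42.1), against 16.8 in RTT_PTGS12KO (16 to 17.7) and 5.66 in NTT (3.59 to 8.49). RTT and RTT_ROSA26 were high, RTT_PTGS12KO lay between them and NTT, and no pair of intervals overlapped. The naive ratio was -2.40 (-2.94 to -1.88) and the knockout ratio -1.23 (-1.31 to -1.15), while the yardstick was 0.25 (0.19 to 0.32). With RTT in place of RTT_ROSA26 the knockout ratio was -0.98, and with CPM + 10 it was -0.92. Among the macrophage genes that reached 10 CPM, 0.257% had a lower naive ratio than Pde4d and 0.382% a lower knockout ratio.

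Monocytes held the same order at a lower level. Pde4d was at 17.9 CPM in RTT (14.4 to 22.1) and 23.9 in RTT_ROSA26 (15.3 to 35.6), against 5.14 in RTT_PTGS12KO (4.47 to 5.87) and 3.86 in NTT (3.34 to 4.43). The knockout and the naive tumour were low, and RTT and RTT_ROSA26 overlapped within counting error. The naive ratio was -1.96 (-2.29 to -1.62), the knockout ratio -2.02 (-2.60 to -1.39) and the yardstick 0.40 (-0.28 to 1.04).

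**Figure D1:**
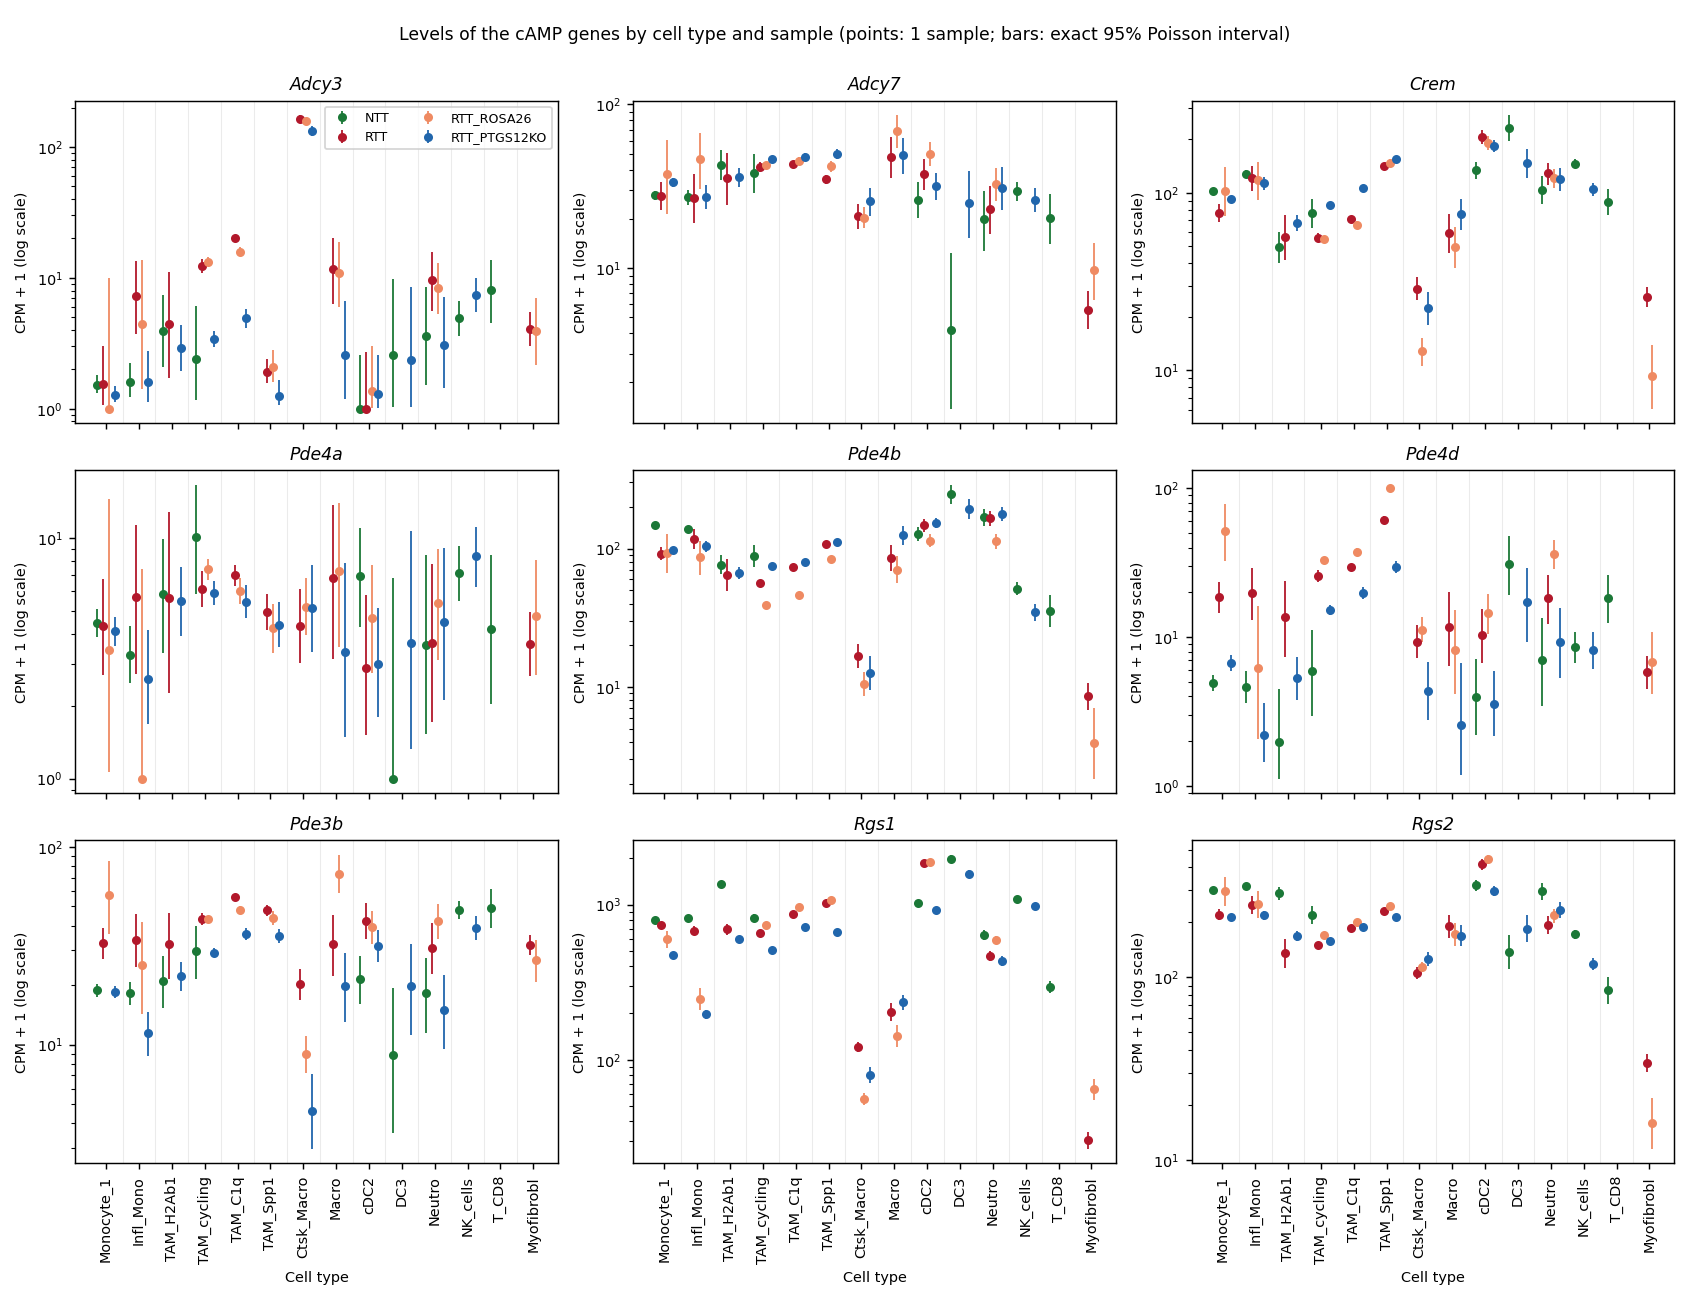
CPM + 1 on a log axis for the 9 genes by cell type, with 1 point per sample and exact 95% Poisson intervals, for types with at least 50 cells in the sample. Pde4d is highest in TAM_Spp1 (60.7 CPM in RTT, 98.8 in RTT_ROSA26, 28.5 in RTT_PTGS12KO), and Adcy3 stands out in Ctsk_Macro at 131 to 164 CPM.

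The lower Pde4d level was seen inside every cell type that could be compared. It was lower in RTT_PTGS12KO than in RTT_ROSA26 in 9 of 9 types, as were 6.92% of genes that reached 10 CPM in each type, and by at least 2-fold on the CPM + 1 scale in 8 of them, with log2 ratios from -2.95 to -0.92. Pde4d itself reached 10 CPM in 7 of these 9 types. In TAM_Spp1, the macrophages that carry osteopontin, the level was 60.7 CPM in RTT, 98.8 in RTT_ROSA26 and 28.5 in RTT_PTGS12KO, and the 3 droplet loads gave 55.4 to 64.9, 90.6 to 107 and 26.8 to 31.3. In TAM_C1q it was 28.5, 36.5 and 18.8 CPM in the same order of samples, and in TAM_cycling 24.8, 31.8 and 14.2. TAM_C1q had the smallest ratio between RTT_PTGS12KO and RTT_ROSA26, -0.92 (-1.07 to -0.77). Other myeloid cells showed the same direction. Neutrophils had 17.3 CPM in RTT and 35.0 in RTT_ROSA26, against 8.34 in RTT_PTGS12KO and 6.02 in NTT. In cDC2s the values in the same order were 9.40, 13.5, 2.57 and 2.98 CPM. The largest ratio, in Monocyte_1, rests on 54 cells and 21 Pde4d UMIs of RTT_ROSA26.

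NTT was lower than RTT in 6 of 6 types, a pattern of 9.90% of genes, and by at least 2-fold in all 6, with log2 ratios from -2.80 to -1.38, and Pde4d reached 10 CPM in 5 of them. In TAM_H2Ab1 the NTT value rests on 2 UMIs, and its log2 ratio of -2.80 had an interval of -3.81 to -1.25. Against both RTT and RTT_ROSA26 at once, a comparison chosen after seeing the data, RTT_PTGS12KO was the lowest of the 3 in 9 of 9 types and NTT in 5 of 5. Among all genes at that level in every type, 2.45% were below both in every type for RTT_PTGS12KO and 6.89% for NTT. The yardstick for Pde4d went both ways in single types, from -1.67 in Infl_Mono, with 5.22 CPM (3 UMIs) in RTT_ROSA26 and 18.8 in RTT, to 1.48 in Monocyte_1, with 50.9 and 17.6 CPM. Types of 1 sample share its library and are not replicates.

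The order of types was not the same in every tumour. TAM_Spp1 had the highest Pde4d level in RTT, RTT_ROSA26 and RTT_PTGS12KO, with an interval clear of the next type each time. Below it, TAM_C1q and TAM_cycling were neighbours with overlapping intervals in RTT. NTT had fewer than 50 TAM_Spp1 cells, and there CCR7+ dendritic cells (DC3) came first at 30.0 CPM (18.1 to 46.8) and CD8+ T cells second at 17.3 (11.4 to 25.2), overlapping, ahead of every myeloid type. DC3 in RTT_PTGS12KO had 16.1 CPM (8.30 to 28.1).

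**Figure D2:**
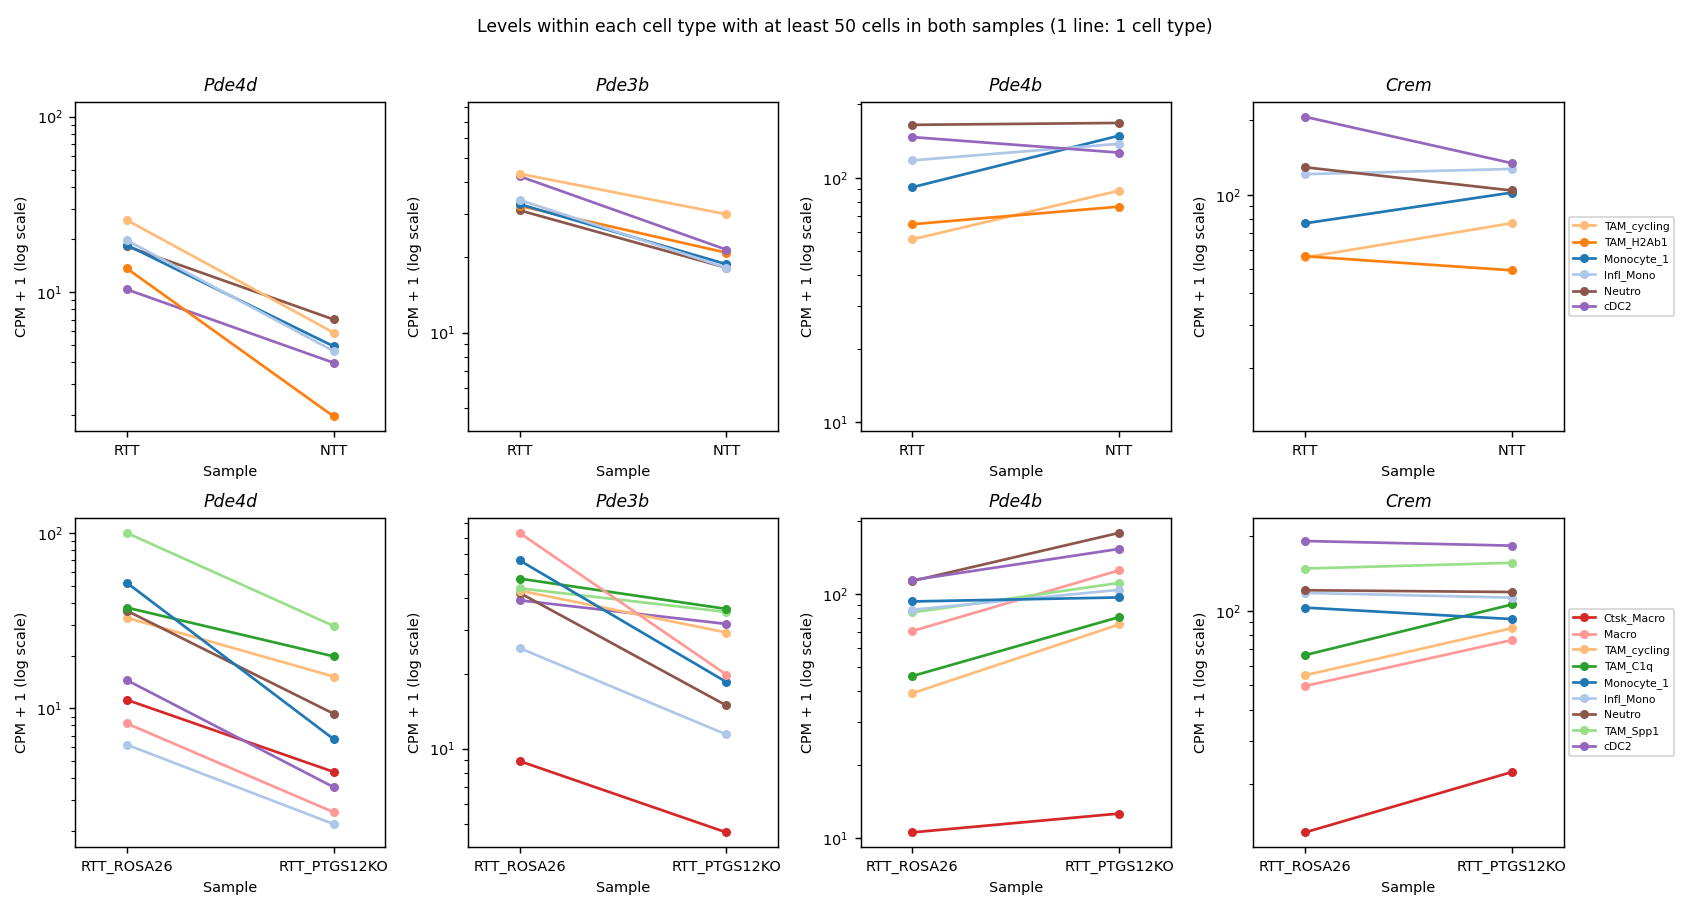
CPM + 1 on a log axis in RTT and NTT (top) and in RTT_ROSA26 and RTT_PTGS12KO (bottom), with 1 line per cell type of at least 50 cells in both samples. All lines fall for Pde4d (6 of 6 and 9 of 9) and Pde3b (6 of 6 and 9 of 9), all 9 rise for Pde4b in the lower row, and those of Crem run both ways.

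Cells with a Pde4d UMI were fewer in the same tumours. With every cell thinned to 5000 UMIs, 14.9% of RTT macrophages (14.0 to 15.7, exact binomial interval), 18.5% of RTT_ROSA26 (17.5 to 19.5), 7.74% of RTT_PTGS12KO (7.02 to 8.51) and 2.10% of NTT (0.774 to 4.51) held one. Without thinning the shares were 31.5%, 37.1%, 19.6% and 5.84%, at median depths of 12915, 14097, 15570 and 11598 UMIs. Thinning left out 22 to 365 macrophages per sample. No type in these data is known to lack Pde4d. For comparison, 3.27% of Myofibrobl cells of RTT held a Pde4d UMI after thinning (1.42 to 6.33) and 14.1% before it, at a median of 33469 UMIs, and the NTT macrophages lay no higher than that. All 4 samples shared each load, but how much free RNA entered the cells of each sample was not measured.

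Pde3b moved with Pde4d, by less. The gene (chr7:114415281-114539251, plus strand) encodes a phosphodiesterase that is itself inhibited by cGMP. Macrophages had 48.1 CPM in RTT (46.7 to 49.5) and 40.8 in RTT_ROSA26 (39.6 to 42.1), against 29.6 in RTT_PTGS12KO (28.5 to 30.8) and 24.6 in NTT (20.0 to 29.9). NTT and RTT_PTGS12KO overlapped, and both were below RTT and RTT_ROSA26. The naive ratio was -0.94 (-1.23 to -0.66), the knockout ratio -0.45 (-0.52 to -0.38) and the yardstick -0.23 (-0.29 to -0.17). Monocytes had 32.0 and 36.9 CPM in RTT and RTT_ROSA26 and 16.7 and 17.6 in RTT_PTGS12KO and NTT, with a knockout ratio of -1.10 (-1.57 to -0.60). Pde3b was lower in RTT_PTGS12KO than in RTT_ROSA26 in 9 of 9 types (log2 -1.89 to -0.31). So were 6.92% of genes that reached 10 CPM in each type. It was lower in NTT than in RTT in 6 of 6 (-0.98 to -0.54), a pattern of 9.90% of genes. Pde3b reached 10 CPM in 8 of the 9 types and in all 6. It was also below both RTT and RTT_ROSA26 in 9 of 9 types for RTT_PTGS12KO and 5 of 5 for NTT. Of all genes, 2.45% and 6.89% were below both in every type. Among lymphocytes the NTT level was 48.1 CPM in CD8+ T cells and 47.1 in NK cells, the highest of that tumour.

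Pde4b behaved unlike Pde4d and Pde3b. The gene (chr4:102087543-102607259, plus strand) encodes the PDE4 form that is prominent in monocytes and macrophages. Macrophages had 73.4 CPM in RTT (71.7 to 75.1), 78.6 in RTT_PTGS12KO (76.7 to 80.4) and 81.4 in NTT (72.9 to 90.7), but 44.3 in RTT_ROSA26 (43.0 to 45.7). RTT_ROSA26 alone was low. The ratio of RTT_PTGS12KO to RTT_ROSA26 was 0.81 (0.76 to 0.86), but that of RTT_ROSA26 to RTT was -0.71 (-0.77 to -0.66), and with RTT as the comparison the knockout's ratio was 0.10. Pde4b was higher in RTT_PTGS12KO than in RTT_ROSA26 in 9 of 9 types (log2 0.06 to 0.94), where 4.66% of genes were higher in every type, and above both RTT and RTT_ROSA26 in 7 of 9. Here 1.97% of genes were above both in every type. Against RTT, NTT was higher in 5 of 6 types, while 12.3% of genes were higher in every type. NTT was above both RTT and RTT_ROSA26 in 4 of 5 types, and 8.62% of genes were above both in all of them. The shares beside 7 of 9, 5 of 6 and 4 of 5 are for every type, a stricter count. Shares at those looser counts were not computed. In monocytes Pde4b was at 146 CPM in NTT (143 to 149) and 87.8 to 97.5 in the 3 resistant samples, whose intervals overlapped. The highest levels were in DC3 of NTT, 245 CPM (208 to 286), and the lowest in Myofibrobl of RTT_ROSA26, 2.90 (1.17 to 5.98).

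Pde4a (chr9:21165714-21213248, plus strand), a further PDE4 gene, stayed below 10 CPM in every type and sample measured, so no ratio of it was counted. Over all cells it was at 4.83 CPM in RTT and 5.24 in RTT_ROSA26, beside 3.98 in RTT_PTGS12KO and 3.75 in NTT. Its highest level was 9.12 CPM (4.86 to 15.6) in TAM_cycling of NTT.

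Of the cyclases, Adcy3 was by far highest in 1 macrophage type of the resistant tumours. The gene (chr12:4133103-4213525, plus strand) encodes a membrane-bound cyclase. Ctsk_Macro, the cathepsin K-positive cluster for which the study lists Adcy3 among its markers, had 164 CPM in RTT (154 to 174), 158 in RTT_ROSA26 (150 to 167) and 131 in RTT_PTGS12KO (120 to 143). TAM_C1q and TAM_cycling followed with 19.1 and 11.4 CPM in RTT, and TAM_cycling overlapped Macro at 10.7, which overlapped neutrophils at 8.63, while TAM_Spp1 had 0.907 and cDC2s 0 UMIs in RTT, where a count of 0 allows up to 3 UMIs. In NTT, where Ctsk_Macro had 5 cells, CD8+ T cells came first at 7.05 CPM and NK cells followed at 3.92, and NK cells of RTT_PTGS12KO had 6.44. The gene overlaps Cenpo on the other strand.

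Within types the cyclooxygenase knockout was lower for Adcy3 where the level was modest. In TAM_C1q it was at 14.9 CPM in RTT_ROSA26 (13.6 to 16.2) and 3.90 in RTT_PTGS12KO (3.14 to 4.78), a log2 ratio of -1.70 (-1.96 to -1.43). In TAM_cycling it was at 12.3 (11.3 to 13.4) and 2.42 (1.97 to 2.95), a ratio of -1.96 (-2.20 to -1.73). NTT had 1.40 CPM in TAM_cycling, from 2 UMIs, against 11.4 in RTT, a ratio of -2.36 (-3.41 to -1.01). In TAM_H2Ab1, the type of most NTT macrophages, it was 2.92 in NTT and 3.47 in RTT, a ratio of -0.19 (-1.84 to 1.50). In Ctsk_Macro the ratio of RTT_PTGS12KO to RTT_ROSA26 was -0.27 (-0.42 to -0.13). Over all macrophages the ratio was -1.50 (-1.61 to -1.39), and it was -0.43 when the macrophage types were weighted equally, since Ctsk_Macro then carries most of the sum. There were 188 Ctsk_Macro cells in RTT_PTGS12KO, 401 in RTT_ROSA26, 329 in RTT and 5 in NTT. After thinning, 43.5% to 52.9% of Ctsk_Macro cells held an Adcy3 UMI against 0.224% to 1.06% of monocytes. Median depths were 16793 to 19418 and 5934 to 9102 UMIs. The 1.06% is 1 of 94 RTT_ROSA26 cells (0.0269 to 5.79), and no type here is known to lack Adcy3.

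Adcy7, the cyclase typical of blood cells, hardly differed in macrophages. The gene (chr8:88272403-88329962, plus strand) was at 38.6 CPM in RTT macrophages (37.3 to 39.8), 40.5 in RTT_ROSA26 (39.3 to 41.8), 44.8 in RTT_PTGS12KO (43.4 to 46.2) and 40.1 in NTT (34.2 to 46.8). The knockout was the highest, and NTT overlapped all 3. The naive ratio was 0.06 (-0.17 to 0.28), the knockout ratio 0.14 (0.08 to 0.20) and the yardstick 0.07 (0.01 to 0.13). In monocytes the levels in the same order of samples were 26.5, 42.9, 31.7 and 26.6 CPM, and the high one, RTT_ROSA26, came from few cells.

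Crem, from which cAMP induces the repressor ICER, was higher in the macrophages of the knockout but not across types. The gene (chr18:3266048-3337748, minus strand) was at 80.9 CPM in RTT macrophages (79.1 to 82.7) and 67.1 in RTT_ROSA26 (65.5 to 68.7), beside 98.0 in RTT_PTGS12KO (96.0 to 100) and 63.7 in NTT (56.2 to 72.0). RTT_PTGS12KO was highest, and NTT overlapped RTT_ROSA26. The knockout ratio was 0.54 (0.49 to 0.59), the naive ratio -0.34 (-0.52 to -0.16) and the yardstick -0.27 (-0.31 to -0.22). With types weighted equally the naive ratio was 0.17, and within types it was 0.46 (0.16 to 0.74) in TAM_cycling and -0.19 (-0.69 to 0.33) in TAM_H2Ab1, so it has no settled direction. The knockout was above both RTT and RTT_ROSA26 in TAM_C1q, with 69.8, 65.3 and 105 CPM in RTT, RTT_ROSA26 and RTT_PTGS12KO, and in TAM_cycling, with 54.9, 54.0 and 84.1. TAM_Spp1 was at 140, 147 and 155 CPM. Ctsk_Macro had the largest knockout ratio, 0.81 (0.40 to 1.22), but RTT was highest there at 27.8 CPM, beside 11.8 in RTT_ROSA26 and 21.4 in RTT_PTGS12KO. Monocytes had 87.3 and 110 CPM in RTT and RTT_ROSA26 and 94 and 106 in RTT_PTGS12KO and NTT, with a knockout ratio of -0.22 (-0.49 to 0.06). The knockout was higher than RTT_ROSA26 in 5 of 9 types and lower in 4, and it was above both RTT and RTT_ROSA26 in 4 types and below both in 3 (Infl_Mono, Neutro and cDC2). The highest levels were in DC3 of NTT, 232 CPM (196 to 273), and in cDC2s of RTT, 205 (187 to 226), neighbours with overlapping intervals across the 2 tumours. The 3′ counts do not tell ICER from the longer Crem transcripts.

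The enzyme digestion ran 1.5 h at 37 °C, and genes that handling can induce were read beside Crem and Pde4b. The 14 immediate-early and heat-shock genes summed to 4839 CPM in RTT macrophages and 4050 in RTT_ROSA26, beside 5073 in RTT_PTGS12KO and 5063 in NTT. RTT_ROSA26 was lowest for this sum, as it was for Pde4b. In monocytes the sums in that order were 5822, 6471, 6183 and 7295 CPM. The part of this in the Crem and Pde4b levels was not tested.

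Rgs1 was lower in the knockout across most types. The gene (chr1:144242296-144249242, minus strand) encodes a regulator that dampens chemokine receptors coupled to inhibitory G proteins. Macrophages had 817 CPM in RTT (812 to 823) and 803 in RTT_ROSA26 (798 to 809), beside 579 in RTT_PTGS12KO (574 to 584) and 1120 in NTT (1087 to 1153). NTT was highest and RTT_PTGS12KO lowest, so the naive tumour and the knockout lay on opposite sides of the resistant pair. The naive ratio was 0.45 (0.41 to 0.50), the knockout ratio -0.47 (-0.49 to -0.45) and the yardstick -0.02 (-0.04 to -0.01). RTT_PTGS12KO was below both RTT and RTT_ROSA26 in 7 of 9 types and above both in 1. For scale, 2.45% of genes were below both in every type, and the share below both in at least 7 was not computed. In macrophages 4828 of the 7324 genes that reached 10 CPM were lower in RTT_PTGS12KO than in RTT_ROSA26. In TAM_Spp1 the levels were 1022, 1065 and 664 CPM in RTT, RTT_ROSA26 and RTT_PTGS12KO.

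The type with the most Rgs1 was DC3 in NTT and RTT_PTGS12KO and cDC2 in RTT and RTT_ROSA26, where DC3 had fewer than 50 cells. In cDC2s it was at 1845 CPM in RTT (1788 to 1904) and 1895 in RTT_ROSA26 (1843 to 1947), against 923 in RTT_PTGS12KO (892 to 956) and 1024 in NTT (984 to 1066). NTT and the knockout were low there and RTT and RTT_ROSA26 overlapped, an order unlike that of macrophages. The ratio of RTT_PTGS12KO to RTT_ROSA26 was -1.04 (-1.10 to -0.97) and that of NTT to RTT -0.85 (-0.92 to -0.78). DC3 had 1975 CPM in NTT and 1577 in RTT_PTGS12KO. In monocytes the yardstick itself was -0.88 (-1.04 to -0.73), 719 CPM in RTT against 389 in RTT_ROSA26, which is larger than the knockout ratio of 0.18 (0.04 to 0.33). Within both monocyte types the knockout was instead lower than RTT_ROSA26, with 195 against 247 CPM in Infl_Mono (-0.34, -0.59 to -0.07) and 475 against 599 in Monocyte_1 (-0.33, -0.51 to -0.15). The knockout ratio of the class ran from -0.70 to 0.55 over the alternative settings.

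Rgs2 differed little between the macrophages of the resistant tumours. The gene (chr1:143999338-144004161, minus strand) encodes a regulator best known for limiting Gq signalling. Macrophages had 183 CPM in RTT (181 to 186), 186 in RTT_ROSA26 (183 to 188), 174 in RTT_PTGS12KO (171 to 177) and 255 in NTT (239 to 271). NTT was above the other 3. The naive ratio was 0.47 (0.38 to 0.56) and the knockout ratio -0.09 (-0.12 to -0.06). In TAM_H2Ab1 NTT was past 2-fold higher, 287 against 134 CPM in RTT (1.09, 0.80 to 1.39). In cDC2s RTT and RTT_ROSA26 had 415 and 441 CPM, and RTT_PTGS12KO and NTT had 296 and 318, which is the order that Rgs1 had there.

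**Figure D3:**
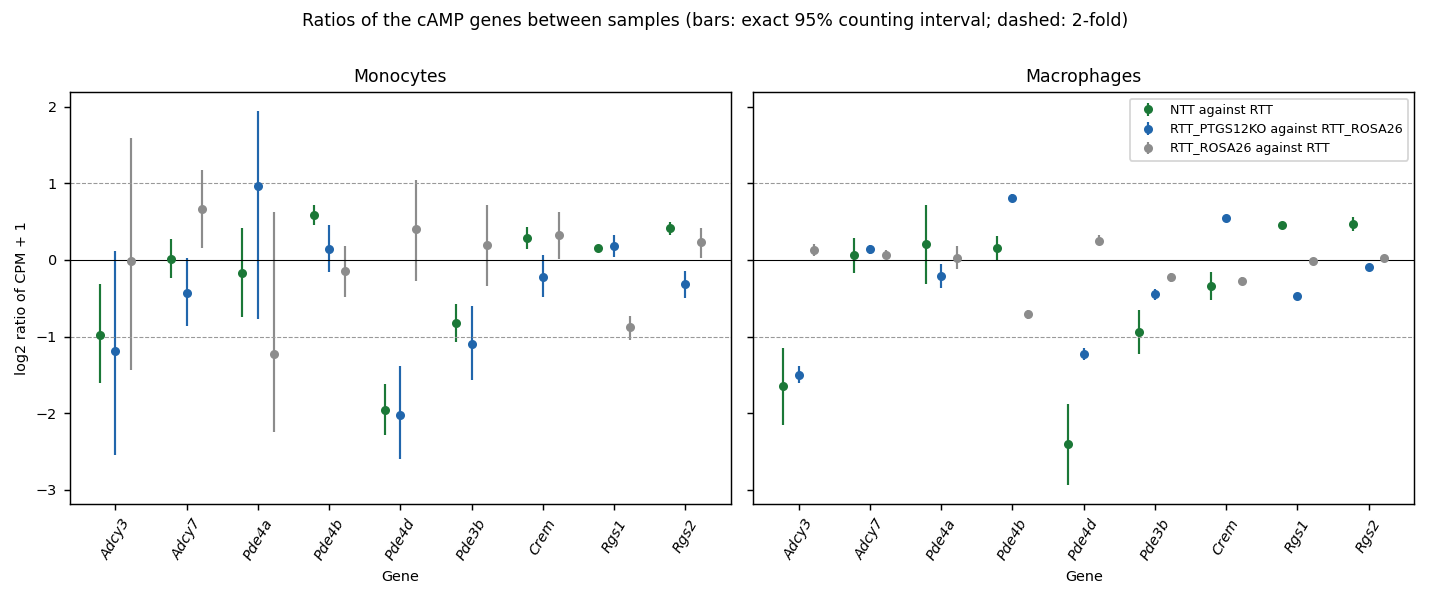
Log2 ratios of CPM + 1 for the 9 genes in monocytes (left) and macrophages (right), in 3 comparisons between samples, with exact 95% counting intervals and dashed lines at 2-fold. In macrophages Pde4d is at -2.40 and -1.23 and Adcy3 at -1.64 and -1.50 for the naive and the knockout ratio, while the yardsticks lie between -0.71 and 0.25.

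The set of 9 genes did not move as a block. Over the pooled classes, members past 2-fold were all lower in NTT or in RTT_PTGS12KO. In the knockout comparison they were 2 of 9 in macrophages (Pde4d and Adcy3, but 0 with CPM + 10). There 3.43% of the 7324 genes that reached 10 CPM were past 2-fold either way. Members past 2-fold were 2 of 9 in monocytes (Pde4d and Pde3b, background 4.68%) and 2 of 9 over all cells (Pde4d and Adcy3, background 6.26%). In monocytes only Pde4d was left with CPM + 10, without droplet load 3 or with RTT as the comparison. Over all cells only Pde4d was left with types weighted equally. In the naive comparison members past 2-fold were 2 of 9 in macrophages (Pde4d and Adcy3, background 9.43%). With CPM + 10 or types weighted equally only Pde4d was left there. In monocytes there was 1 of 9 (Pde4d, background 3.49%), and over all cells 3 of 9 (Pde4d, Adcy3 and Pde3b, background 15.3%). Over all cells Pde3b, at -1.04, was at -0.81 with CPM + 10 and -0.90 with TMM factors. With types weighted equally neither Adcy3 nor Pde3b was past 2-fold over all cells. For the yardstick members past 2-fold were 0 of 9 in macrophages, monocytes and all cells, with backgrounds of 1.39%, 4.73% and 1.83%. At least 10 CPM was reached by 8 of 9 members in macrophages and 7 of 9 in monocytes in each comparison, and the comparisons share samples.

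**Figure D4:**
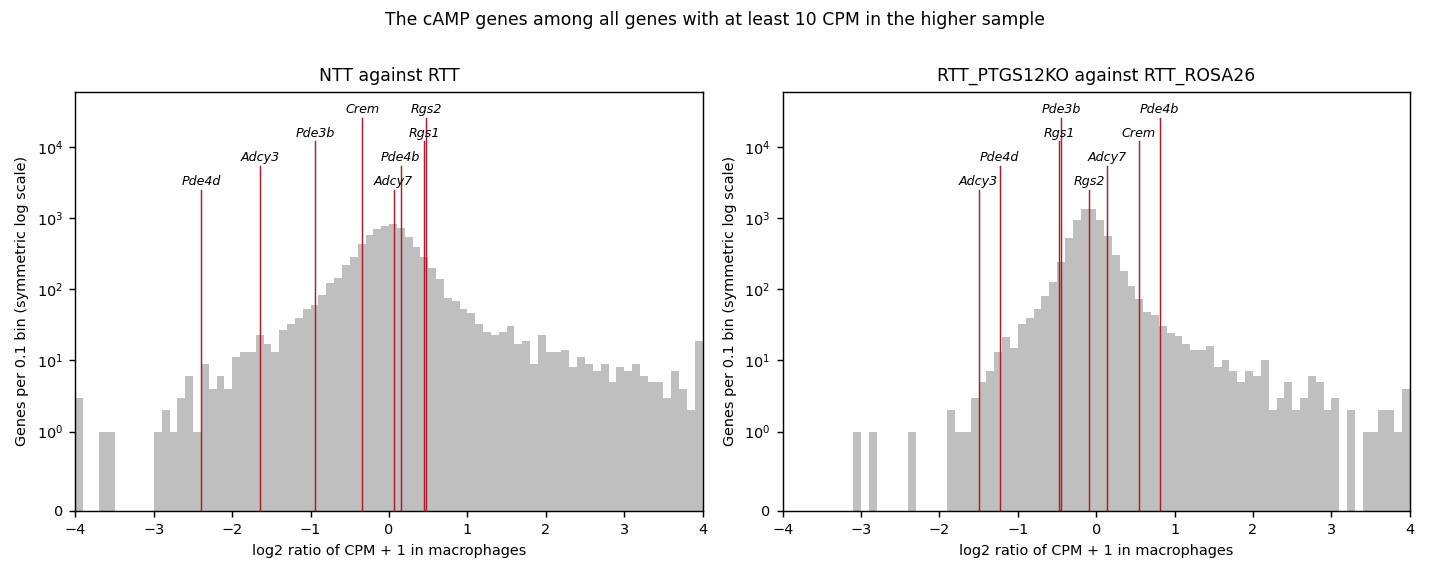
Histograms of the log2 ratio of CPM + 1 in macrophages over all genes that reached 10 CPM, in bins of 0.1 with a symmetric log axis for the number of genes, and lines at the cAMP genes. Genes beyond 4 in size stand in the end bins. Pde4d and Adcy3 lie in the lower tail of both panels. In the knockout panel Crem (0.54) and Pde4b (0.81) lie towards the upper end and Pde3b (-0.45) and Rgs1 (-0.47) towards the lower, as Pde3b does in the naive panel (-0.94).

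The wider pathway showed few differences of that size. In macrophages, 12 of 19 listed protein kinase A and Epac genes and 7 of 9 G-protein genes reached 10 CPM, and 0 of either were past 2-fold in the naive comparison (background 9.43%) or the knockout comparison (background 3.43%), a number that so few genes can also give at the background. Of the 9 listed receptors, 3 reached 10 CPM. Ptger4, which encodes EP4, was at 10.2 CPM in RTT macrophages, 16 in RTT_ROSA26, 18.7 in RTT_PTGS12KO and 20.7 in NTT, and Ptger2, which encodes EP2, at 9.20, 6.52, 8.11 and 5.66 in the same order. The only receptor past 2-fold was Adora2b, an adenosine receptor that also raises cAMP, with 11.8 CPM in NTT and 24.9 in RTT (log2 -1.02, -1.42 to -0.63). In monocytes 11 of the 19 protein kinase A and Epac genes reached 10 CPM, and 1 was past 2-fold in the naive comparison (background 3.49%). It was Akap7, an anchor of protein kinase A, at 24.7 CPM in NTT against 11.6 in RTT (1.03, 0.67 to 1.40).

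Listed targets of cAMP and CREB included some that were lower in NTT than in RTT macrophages, classes held mostly by TAM_H2Ab1 and by TAM_C1q. Within types these targets were not compared. Of 15, 14 reached 10 CPM, 5 were past 2-fold lower (background 3.83%) and 0 higher, with a median log2 ratio of -0.64 beside 0.00 over all genes. They included Il10, which encodes an anti-inflammatory cytokine, at 8.37 CPM in NTT and 40.7 in RTT (-2.15, -2.62 to -1.71), Thbs1, for thrombospondin 1, at 248 and 973 (-1.97, -2.06 to -1.88) and Nr4a2, an orphan nuclear receptor, at 39.6 and 104 (-1.37, -1.60 to -1.15). In RTT_PTGS12KO against RTT_ROSA26 the same list had 0 lower and 1 higher past 2-fold (background 2.46%) and a median of 0.29 beside -0.09 over all genes. The 1 was Areg, for amphiregulin, at 31.3 CPM against 12.4 (1.27, 1.18 to 1.36). The yardstick was wide for this list, with all 14 genes lower in RTT_ROSA26 than in RTT and a median of -0.43. In monocytes NTT against RTT had 12 of the 15 at 10 CPM, 0 past 2-fold, 8 higher and 4 lower, with a median of 0.18. In the knockout comparison 14 of the 15 reached 10 CPM and 3 were past 2-fold lower in RTT_PTGS12KO than in RTT_ROSA26 (background 2.47%), Areg (11.4 against 48.9 CPM), Il10 (2.76 against 11) and Thbs1 (536 against 1413). The monocyte yardstick was also wide, with 2 of 14 past 2-fold higher in RTT_ROSA26 than in RTT (background 2.20%), and RTT monocytes had 9.18 CPM of Areg, below the knockout, 746 of Thbs1 and 8.36 of Il10.

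Likeness of pattern was read as Pearson's r of log2(CPM + 1) over the 42 sums of a cell type in a sample with at least 50 cells, among 2527 genes with a mean of at least 50 CPM. The sums share 4 libraries and differ in depth, so r is given as a description. For both Pde4d (r = 0.641) and Pde3b (r = 0.744) the first of the 2527 genes was Prkar1a, which encodes a regulatory subunit of protein kinase A. Prkar1a was at 218 CPM in RTT macrophages (215 to 221) and 215 in RTT_ROSA26 (212 to 218), against 181 in RTT_PTGS12KO (178 to 184) and 159 in NTT (147 to 172), which is the order that Pde3b had. The next genes were Top1 and Mxi1 for Pde4d and Man1a and Cbfb for Pde3b. Pde4d and Pde3b had r = 0.50 with each other, and Pde4d had r = 0.10 with Pde4b.

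Pde4b and Crem had a further pattern (r = 0.88 with each other), which Rgs1 and Rgs2 came close to. Crem had r = 0.79 with Rgs1 and 0.73 with Rgs2, and Pde4b had 0.73 and 0.81. The genes most like Pde4b were Nfil3 (0.952), Pim1 (0.946) and Ccrl2 (0.914), and those most like Crem were Dennd4a (0.884), Pde4b and Nfil3 (0.878 each). For Rgs1 they were Runx3 (0.908), Bcl2a1d (0.846) and Id2 (0.843), for Rgs2 Ncf4 (0.928), Hcls1 (0.896) and Snx20 (0.891), for Adcy7 Ppp2r5c (0.834), Fuca2 (0.82) and Myo1f (0.818), and for Pde4a Nucb1 (0.691), Eif3b (0.683) and Agpat5 (0.646). For Adcy3 they were Sdha (0.803), Ctsk (0.802) and Ifi27 (0.789), and Ctsk marks the type in which Adcy3 was highest.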

How the data were processed

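CD45+ cells of 4 melanoma samples carried sample oligos and shared 3 loads of a 3′ droplet assay. The values the authors deposited are raw UMI counts, unnormalized, in a matrix of genes by cells, and a table names the sample and cell type of every cell. The submitters' processing notes name Cell Ranger, Seurat 4.3.0 and mm10. All 33368 deposited cells were used, and no doublet caller was run.

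For each sample and class the UMIs of all cells were added up and scaled to 1000000 (CPM). Only types with at least 50 cells in a sample were measured. The tools were Python 3.11.15, scipy 1.17.1, pandas 2.3.3 and numpy 2.4.6, edgeR 4.0.16 in R 4.3.3 for TMM factors, and matplotlib 3.10.9 for figures. For shares, cells with at least 5000 UMIs were thinned to 5000 UMIs. Ratios and intervals were tested on simulated data. Coordinates are from GENCODE on GRCm38.

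The 9 genes, the pathway lists and the markers were chosen with earlier results of these data known. All 9 genes were named, up to 4 genes per list with the largest ratio past 2-fold in macrophages, and the 3 genes most like each member. Genes named in monocytes were chosen after their values were seen. A gene that this rule would name is not reported here. Alternatives are given in the closing section. With 1 sample per group there was no test, and tumour-to-tumour spread is known only from RTT and RTT_ROSA26. The labels give 1 tumour per condition while the study's legends speak of pooled tumours, which was not settled.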

Additional observations from a re-analysis of the deposited data

Results flagged for a closer look

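Areg, a listed cAMP and CREB target that is no member of the set, went opposite ways in the 2 myeloid classes for RTT_PTGS12KO against RTT_ROSA26, past 2-fold in both. Its log2 ratio was -2.01 in monocytes (48.9 CPM in RTT_ROSA26, 11.4 in RTT_PTGS12KO) and 1.27 in macrophages (12.4 and 31.3 CPM). RTT had 9.18 CPM in monocytes and 20.2 in macrophages, so only RTT_ROSA26, with 144 monocytes, was higher in monocytes than in macrophages. The monocytes of RTT_ROSA26 were mostly Infl_Mono and those of the knockout mostly Monocyte_1. With 1 sample per group the difference was not tested.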

How the results depend on the processing

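No paired analysis was possible because no condition has a second sample to pair. Of 81 log2 ratios (9 genes, 3 comparisons, 3 classes), 12 were past 2-fold, 0 of the 12 changed sign under the 10 planned settings or with RTT as the comparison sample, which was added after seeing the data, and 5 stayed past 2-fold in all of them. With cell types weighted equally, members past 2-fold were 1 (Pde4d) for NTT against RTT over all cells and in macrophages, and 1 (Pde4d) for RTT_PTGS12KO against RTT_ROSA26 over all cells and in macrophages. With CPM + 10 they were 1 (Pde4d) for NTT against RTT in macrophages, 1 (Pde4d) in monocytes and 0 in macrophages for RTT_PTGS12KO against RTT_ROSA26. In those monocytes 1 (Pde4d) was left without droplet load 3 and 1 (Pde4d) with RTT in place of RTT_ROSA26. In macrophages RTT in place of RTT_ROSA26 gave 1 (Adcy3), with Pde4d at -0.98. For RTT_ROSA26 against RTT in monocytes, no minimum CPM gave 1 (Pde4a) and the mean over cells of each cell's CPM gave 1 (Rgs1). Over all cells NTT against RTT gave 2 (without Pde3b) with CPM + 10 and with TMM factors. In the monocytes of RTT_PTGS12KO against RTT_ROSA26, no minimum CPM added Adcy3 (-1.19). For NTT against RTT in macrophages, Pde3b (-0.94) passed 2-fold with the mean over cells (-1.07) and without droplet load 3. The cause of these moves was not tested.

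Depth limits the NTT macrophages (308 cells, 23 Pde4d UMIs) and the RTT_ROSA26 monocytes (144 cells). Intervals cover counting error only, so a difference outside them can still be one between tumours.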
